A study of Homo sapiens with 2 samples.

Results

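The genes of 10 brain proteoglycans were described across the cells of 2 single-cell RNA libraries. The cells were astrocyte progenitors made from the human embryonic stem cell line H7. The genes are BCAN, NCAN and VCAN, CSPG4 and CSPG5, GPC3, GPC4 and GPC6, and SDC2 and SDC3, and all 10 were found by symbol among the 36601 genes of the count tables. One library came from day 160 and 1 from day 220 of differentiation, both labelled with the agents LIF, BMP4 and FGF1. Each library combined 3 separately differentiated lines before loading and no label separates them, so each day was 1 sample, no test between days was possible and all intervals below are 95% intervals for counting error only. The deposited names of the libraries carry different prefixes, with a meaning not given in the sources used here, and the extraction text of the later library repeats the earlier day, so the day labels were taken as given.

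Proteoglycans are proteins that carry long sulfated sugar chains. The lecticans (brevican from BCAN, neurocan from NCAN, versican from VCAN) are secreted chondroitin sulfate proteoglycans that bind hyaluronan and tenascins in the matrix around neural cells. CSPG4 encodes NG2, a surface proteoglycan of oligodendrocyte precursors and pericytes, and CSPG5 encodes neuroglycan C, a membrane proteoglycan of the nervous system. Glypicans are held on the cell surface by a lipid anchor, syndecans by a membrane-spanning segment, and both carry heparan sulfate, which binds growth factors such as those of the FGF, WNT and BMP families.

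After filtering, the day 160 library had 9389 cells with a median of 10041 UMIs (unique molecular identifiers, each standing for 1 captured RNA molecule) and the day 220 library 518 cells with a median of 46079.5. Mitochondrially encoded genes took 11.7% and 8.78% of these UMIs. The libraries had 2 barcodes in common among kept cells. All 14 listed astrocyte markers had UMIs in both libraries, with S100B at 172 and 570 CPM (UMIs per 1000000 UMIs of a library or cluster) and GFAP at 551 and 135, while ALDH1L1 was at 2.14 and 0.31 and AQP4 at 5.08 and 2.12. Levels below are in CPM. They count 3′ tags and are not divided by gene length, so they are compared between cells and days for 1 gene, not between genes.

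Between the days BCAN, NCAN and GPC6 were higher past 2-fold at the later day, and GPC3 was lower past 2-fold. BCAN stood at 66.7 (65.2 to 68.2) at day 160 and 278 (272 to 285) at day 220, 4.17-fold higher (4.04 to 4.31). NCAN stood at 7.77 (7.27 to 8.30) and 52.2 (49.5 to 55.1), 6.72-fold higher (6.17 to 7.32). GPC6 stood at 28.8 (27.8 to 29.7) and 366 (358 to 373), 12.7-fold higher (12.2 to 13.2). GPC3 differed in the other direction, with 15.5 (14.8 to 16.2) at day 160 and 1.80 (1.32 to 2.41) at day 220 on 46 UMIs, 8.59-fold lower (6.41 to 11.8). With at most 10% mitochondrial UMIs per cell the log2 ratio of GPC3 went from -2.56 to -3.62 and that of NCAN from 2.60 to 3.21, and NCAN was at 3.76 in cells of 20000 or more UMIs. Of the 10 members, 9 reached 10 CPM in at least 1 library. Of these 9, 3 were higher and 1 lower past 2-fold on log2(CPM + 1), beside 23% of all 10167 genes counted by the same rule that were higher, 5.09% that were lower and 28% in either direction.

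The other measured members lay within 2-fold. SDC3 had 69.2 (67.7 to 70.7) and 125 (120 to 129), 1.80-fold higher (1.73 to 1.88). GPC4 had 154 (151 to 156) and 218 (213 to 224), 1.42-fold higher (1.38 to 1.47), and CSPG5 had 68.7 (67.2 to 70.3) and 90.4 (86.7 to 94.2), 1.31-fold higher (1.25 to 1.38). SDC2 had 71.4 (69.9 to 73.0) and 72.4 (69.1 to 75.8), a ratio of 1.01 (0.963 to 1.07) whose interval includes 1. VCAN, at 38.0 (36.9 to 39.2) and 21.9 (20.1 to 23.7), was 1.74-fold lower (1.59 to 1.90). Its log2 ratio of -0.77 went past 2-fold with each cell thinned to 5000 UMIs (-1.02) and with libraries scaled by TMM (-1.21), a scaling that lowered the median of all genes counted from 0.14 to -0.35.

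**Figure D1:**
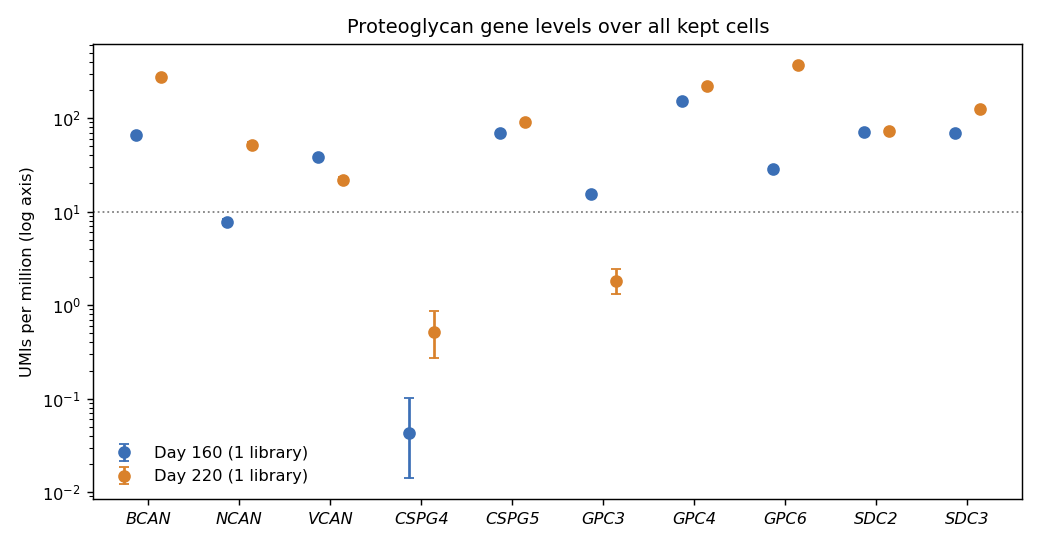
Levels of the 10 proteoglycan genes over all kept cells, in CPM on a log axis, with 1 point per library and bars for the 95% Poisson interval, which are smaller than most points. BCAN, NCAN and GPC6 sit higher at day 220, GPC3 sits lower, and both CSPG4 points lie far under the dotted line at 10.

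CSPG4 was close to absent. It had 5 UMIs at day 160 (0.043, 0.014 to 0.101) and 13 UMIs at day 220 (0.51, 0.27 to 0.87), beside limits of 0.0261 and 0.118 that 3 UMIs would give. It did not reach 10 CPM in either library and was left out of the counts past 2-fold and of the pairs.

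The ratio between the libraries followed the length of a gene's introns over all genes, and the members differ in it by their annotation. Of 530 genes counted with 300000 or more intron bases, 88.7% were higher past 2-fold and their log2 ratios had a median of 2.58, against 3.26% of 1869 genes with 1000 to 10000 intron bases. GPC6 (chr13:93226842-94407401, plus strand, 1174092 intron bases) was 1 of the 470 long genes that were higher, and 108 of the 530 had a higher ratio than its 3.62. GPC3 (chrX:133535745-133985895, minus strand, 447440 intron bases) was 1 of 8 long genes that were lower past 2-fold, and 1 of the 530, NTRK2, had a lower ratio than its -2.56.

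BCAN (chr1:156641390-156659532, plus strand) and NCAN (chr19:19211973-19252233, plus strand) have 13212 and 33356 intron bases. Over all genes with 10000 to 100000 intron bases the median was 0.11 and 13.2% were higher past 2-fold. Centred on the median of genes of like intron length, the log2 ratios were 2.28 for BCAN and 2.51 for NCAN, against 2.04 and 2.60 as measured. Centring took GPC6 from 3.62 to 1.04 and GPC3 from -2.56 to -5.14. VCAN (chr5:83471465-83582303, 96008 intron bases) and SDC2 (113894 intron bases) were at -1.54 and -1.04 after centring, past 2-fold, and GPC4 turned from 0.50 to -0.26. CSPG5 (chr3:47562239-47580792, minus strand) and SDC3 (chr1:30869467-30908761, minus strand) were at 0.58 and 0.79. After centring, 3 members were higher past 2-fold, beside 10.5% of genes, and 3 were lower, beside 7.49%, or 18% of genes in either direction. GPC6, at 1.04, was just past the log2 limit of 1.

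**Figure D2:**
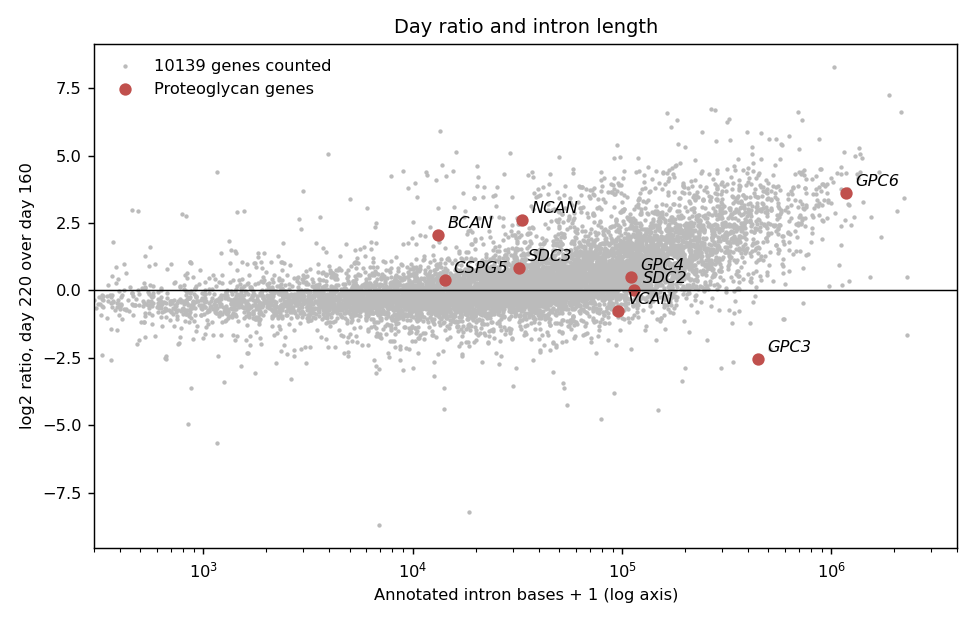
The log2 ratio of levels, day 220 over day 160, against annotated intron bases on a log axis, with 10139 genes in grey and the 9 measured proteoglycan genes in red. GPC6 lies within the rising cloud of long genes, GPC3 far under it, and BCAN and NCAN above genes of like length.

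GPC3 and GPC4 are neighbours on chromosome X, on the same strand and 120254 bases apart (GPC4 at chrX:133300103-133415490), and their day ratios went in different directions, 8.59-fold lower for GPC3 and 1.42-fold higher for GPC4. Genes on the other strand are annotated over VCAN, GPC6, CSPG4 and BCAN, and the strand setting of the counting was not given in the sources used here. The UMIs given here are not scaled to depth, so they are to be compared within a day only. VCAN-AS1 had 1 and 19 UMIs, GPC6-AS2 1 and 19, GPC6-AS1 0 and 29 and AL354811.1, also over GPC6, 59 and 24, beside 4378 and 557 UMIs of VCAN and 3311 and 9319 of GPC6. Over BCAN, AL365181.3 had 32 and 4 UMIs and AL590666.2 had 0 and 3, beside 7682 and 7095 of BCAN. AC105020.1, which overlaps CSPG4 on the other strand, had 55 and 15 UMIs, more than CSPG4 itself, so the CSPG4 level is uncertain.

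Promoter windows were available from the RefSeq table (GRCh38.p14, 250 bases before to 50 after a start) for 7 of the 10 members. Windows of 4 are shown: BCAN, CSPG5 and SDC3, whose pairs had the highest correlations across cells at day 220 as given further on, and GPC6, the member with the highest day ratio. Capitals mark GGGCGG on either strand, the GC box, and overlapping matches run together. The windows are chr1:156641867-156642166 for BCAN, the second of the pair that RefSeq lists for CSPG5 at chr3:47578816-47579115, chr1:30908709-30909008 for SDC3 and chr13:93226557-93226856 for GPC6, each 5′ to 3′ on the gene's strand.
BCAN: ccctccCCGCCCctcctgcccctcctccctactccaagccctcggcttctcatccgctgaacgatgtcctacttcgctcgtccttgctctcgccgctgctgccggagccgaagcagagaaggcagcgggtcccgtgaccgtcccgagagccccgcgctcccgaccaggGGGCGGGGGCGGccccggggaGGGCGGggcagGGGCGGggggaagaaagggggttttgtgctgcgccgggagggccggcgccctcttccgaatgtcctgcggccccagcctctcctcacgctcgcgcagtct
CSPG5: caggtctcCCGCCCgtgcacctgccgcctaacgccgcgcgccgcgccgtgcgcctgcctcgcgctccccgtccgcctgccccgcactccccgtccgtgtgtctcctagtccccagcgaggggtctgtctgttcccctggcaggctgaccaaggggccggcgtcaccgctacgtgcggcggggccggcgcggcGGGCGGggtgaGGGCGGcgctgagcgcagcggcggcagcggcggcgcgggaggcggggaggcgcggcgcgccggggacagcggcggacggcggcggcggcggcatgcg
SDC3: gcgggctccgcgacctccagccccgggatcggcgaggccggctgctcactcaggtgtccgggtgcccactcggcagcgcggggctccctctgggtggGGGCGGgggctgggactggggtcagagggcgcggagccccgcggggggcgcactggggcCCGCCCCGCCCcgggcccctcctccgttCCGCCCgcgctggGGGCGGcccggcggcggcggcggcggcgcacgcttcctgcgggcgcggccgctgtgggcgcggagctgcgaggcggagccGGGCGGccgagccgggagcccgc
GPC6: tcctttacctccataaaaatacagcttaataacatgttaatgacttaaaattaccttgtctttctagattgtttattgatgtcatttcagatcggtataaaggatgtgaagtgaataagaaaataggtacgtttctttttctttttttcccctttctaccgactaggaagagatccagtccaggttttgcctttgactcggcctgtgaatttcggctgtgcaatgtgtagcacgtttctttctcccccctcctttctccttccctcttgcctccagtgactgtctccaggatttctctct

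The BCAN window held 5 GC boxes, the SDC3 window 6 and the CSPG5 window 3, while the GPC6 window held 0. The other CSPG5 window, at chr3:47580191-47580490, held 0 and had a G and C share of 48.3%. Among members not shown, the GPC4 window held 2 with a share of 74.7%. The VCAN and CSPG4 windows held 1 each, with shares of 60.3% and 69.3%. Of all 35116 windows of this length, 45.0% held at least 1. The G and C share was 72.7% for BCAN, 81% for the CSPG5 window shown, 84% for SDC3 and 40% for GPC6, against a median of 58.7% over all windows. The GPC6 window held 1 TATAAA on either strand, found in 11.5% of all windows, and the other 3 windows shown held 0. These matches describe the letters of the windows and say nothing of binding.

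Each library was clustered alone with the 10 members and all listed pathway genes left out of the genes used, which gave 11 clusters at day 160 and 7 at day 220. Some pathway genes are also markers: TNC and PTPRZ1 of radial glia, CD44 of astrocytes, and LUM and DCN of mesenchymal cells. They were left out of the clustering but counted in the naming and in the marker sums. A cluster was called after a class only where a listed marker stood among its 10 leading genes, 3 or more markers of the class were at least 1.5-fold over the rest of the library, and no other class had more such markers. At day 160 cluster 0 was radial glia-like (HOPX, FABP7), clusters 1 and 2 neuronal precursor-like (CRABP1 in the first, GADD45G and DLX1 in the second), clusters 3, 5 and 9 cycling-like, clusters 4 and 8 neuron-like (DCX and STMN2, and STMN2 and SYT1) and cluster 10 contractile-like (TAGLN, ACTA2). Cluster 6, led by HLA class II genes, and cluster 7, led by RAMP1 and GPC3, were left without a name. At day 220 clusters 0 and 3 were neuronal precursor-like, cluster 1 astrocyte-like (SPARCL1, SLC1A3), cluster 4 contractile-like, cluster 5 cycling-like and cluster 6 neuron-like, and cluster 2, led by OLIG1 but with 2 such markers of the oligodendrocyte lineage, was left without a name. The names radial glia-like and astrocyte-like, and neuronal precursor-like in some clusters, rest on ties or near ties. Past 1.5-fold, cluster 0 of day 160 had 7 radial glia and 6 astrocyte markers, and cluster 1 of day 220 had 8 of each. Cluster 0 of day 220, with 153 cells, had 3 neuronal precursor and 3 neuron markers past 1.5-fold. Its summed neuron markers, at 1461, were above its summed precursor markers, at 1028. Cluster 1 of day 160 had 9 neuronal precursor and 8 neuron markers. Cluster 6 of day 160 had 6 astrocyte and 4 radial glia markers past it, but none among its leading genes. Summed astrocyte markers ran from 577 in cluster 9 to 2934 in cluster 6 at day 160 and from 399 in cluster 6 to 3660 in cluster 1 at day 220. They were 2635 in cluster 0 of day 160. Summed radial glia markers were 17632.5 in that cluster and 18297 in cluster 1 of day 220. The part that the mix of cells has in the levels over all cells was not tested, and levels within clusters are given for that reason.

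BCAN was highest in the radial glia-like cluster at day 160 and in the unnamed OLIG1 cluster at day 220. At day 160 it had 137 (133 to 141) in the radial glia-like cluster 0, 109 (104 to 114) in the HLA class II cluster 6 and 77.7 (70.4 to 85.6) in the RAMP1 cluster 7. The neuronal precursor-like clusters 1 and 2 had 4.67 (3.44 to 6.19) and 16.0 (13.6 to 18.6), so the highest cluster was 29.3-fold (22.1 to 39.8) over the lowest. The cycling-like clusters 3 and 5 had 44.1 (40.3 to 48.2) and 31.2 (28.1 to 34.5), and cluster 9, also cycling-like, had 8.06 (5.11 to 12.1). At day 220 BCAN reached 800 (770 to 831) in the OLIG1 cluster 2, beside 333 (312 to 356) in the precursor-like cluster 3, 303 (291 to 316) in the astrocyte-like cluster 1 and 49.7 (44.0 to 55.9) in the precursor-like cluster 0. BCAN stood among the 10 leading genes of cluster 0 at day 160 and of the OLIG1 cluster at day 220, although it was not used to form them.

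NCAN followed another order. At day 160 it was highest in the neuron-like cluster 4, led by SCGN and CALB2, at 44.9 (39.4 to 50.9), followed by 15.2 (10.8 to 20.8) in the neuron-like cluster 8 and 14.1 (11.9 to 16.7) and 11.8 (9.77 to 14.1) in precursor-like clusters 2 and 1, 3 values whose intervals overlap. The radial glia-like cluster had 6.73 (5.82 to 7.74) and the contractile-like cluster 1.22 (0.63 to 2.12). At day 220 NCAN was spread more widely, from 24.4 (19.97 to 29.4) in the contractile-like cluster to 96.3 (86.2 to 107) in the OLIG1 cluster, with the 24 neuron-like cells at 92.8 (66.3 to 126) on 40 UMIs. Over clusters of 50 or more cells the highest was 36.9-fold over the lowest at day 160 and 3.95-fold at day 220. This depended on the clustering, with 9.10-fold and 1.44-fold at Leiden resolution 0.3, and 72.8-fold at day 160 at resolution 1.0.

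Cluster 4 of day 160 held both lecticans. BCAN had 44.4 (38.9 to 50.3) there, against 6.24 (3.57 to 10.1) in the other neuron-like cluster. At 5000 UMIs per cell, 17.6% of its 614 cells had BCAN, 19.4% had NCAN and 4.23% had both, beside a product of the shares of 3.41%. In the radial glia-like cluster NCAN was in 2.57% of 2099 cells, and 68.5% of those 54 cells had BCAN against 39.1% of the others. These 2 clusters were picked for this comparison after their levels were seen.

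VCAN varied less. At day 160 it ran from 19.1 (15.6 to 23.2) in the neuron-like cluster 4 to 61.7 (52.9 to 71.5) in the cycling-like cluster 9, 3.22-fold (2.51 to 4.15), or 1.66-fold at Leiden resolution 0.3. At day 220 its clusters of 50 or more cells lay between 17.4 (14.1 to 21.2) and 29.9 (23.8 to 37.2), and the neuron-like cluster had 6.96 on 3 UMIs.

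CSPG5 was highest in the HLA class II and radial glia-like clusters at day 160 and in the astrocyte-like cluster at day 220. At day 160 it had 134 (128 to 140) in the HLA class II cluster and 124 (120 to 128) in the radial glia-like cluster, and 6.91 (5.40 to 8.72), 7.81 (4.77 to 12.1) and 10.7 (8.10 to 13.8) in clusters 1, 8 and 4. At day 220 it had 155 (146 to 165) in the astrocyte-like cluster, 115 (103 to 129) and 107 (96.5 to 119) in clusters 3 and 2, and 16.7 (13.5 to 20.4) in the precursor-like cluster 0. Precursor-like cluster 0 and neuron-like cluster 6, at 4.64 on 2 UMIs, were its lowest clusters.

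**Figure D3:**
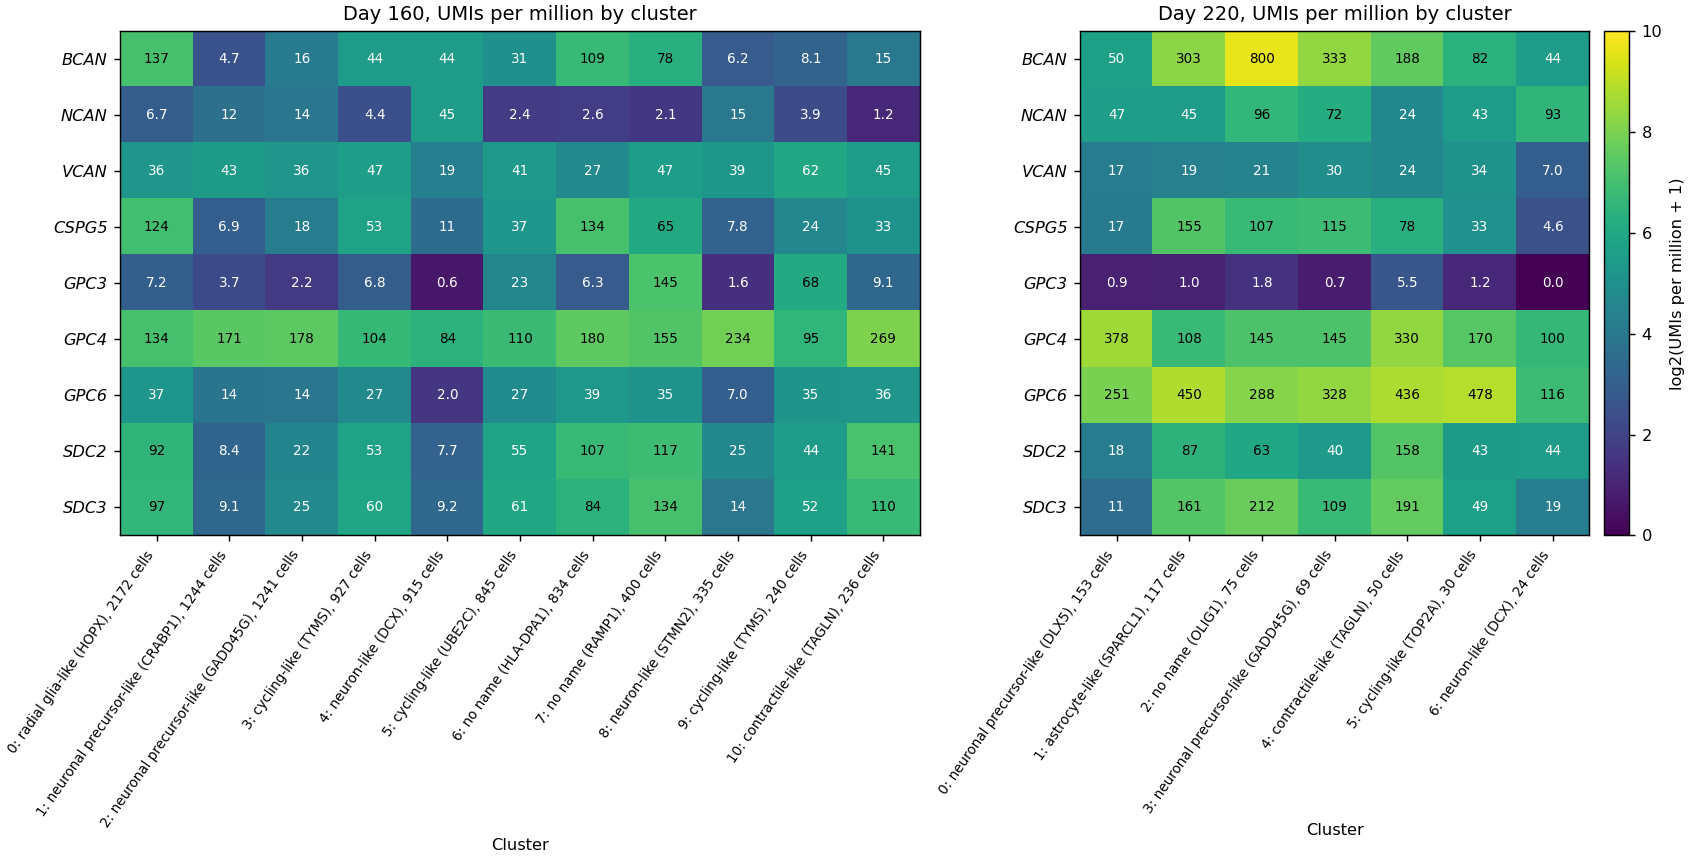
Levels in CPM, printed in each cell, of 9 proteoglycan genes in the 11 clusters of day 160 and the 7 of day 220, with colour for log2(CPM + 1) on 1 scale. BCAN and CSPG5 are bright in clusters 0 and 6 at day 160, NCAN in the neuron-like cluster 4, GPC3 in clusters 7 and 9, and GPC6 in every cluster at day 220.

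GPC3, which encodes a glypican known in overgrowth when mutated, was held by few cells. At day 160 it had 145 (135 to 155) in the RAMP1 cluster 7 and 67.6 (58.4 to 77.9) in the cycling-like cluster 9. Cluster 5 had 22.8 (20.2 to 25.6), and all other clusters had 9.12 or less, with 0.55 from 3 UMIs in the neuron-like cluster 4. Cluster 7 made up 4.26% of kept cells and held 769 of the 1786 GPC3 UMIs. At day 220 the contractile-like cluster was highest at 5.46 (3.50 to 8.13) and held 24 of the 46 UMIs, and the neuron-like cluster had 0 UMIs, which among 430857 UMIs in all allows up to 6.96.

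GPC4 and GPC6 had patterns that differed from each other. The highest cluster of day 160 was 3.20-fold over the lowest for GPC4 and 19.1-fold for GPC6. GPC4 at day 160 ran from 83.9 (76.4 to 92.0) in neuron-like cluster 4 to 269 (259 to 279) in the contractile-like cluster and 234 (215 to 253) in neuron-like cluster 8. At day 220 it was highest in the precursor-like cluster 0 at 378 (362 to 395) and the contractile-like cluster at 330 (313 to 347), and 108 (101 to 116) in the astrocyte-like cluster. GPC6 at day 160 lay between 26.9 and 38.8 in 7 of 11 clusters, and at 13.9 (11.7 to 16.4) and 14.3 (12.1 to 16.9) in the precursor-like clusters and 7.02 (4.16 to 11.1) and 2.02 (1.01 to 3.62) in the neuron-like clusters. At day 220 it was at 116 (86.1 to 153) in the neuron-like cluster and between 251 (238 to 264) and 478 (445 to 512) in the others, so each day 220 cluster was above each day 160 cluster.

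SDC2 and SDC3, a pair of syndecans, followed each other over the clusters. At day 160 SDC2 was highest in the contractile-like cluster at 141 (133 to 148) and lowest in neuron-like cluster 4 at 7.73 (5.57 to 10.4), and SDC3 was highest in the RAMP1 cluster at 134 (124 to 144) and lowest in precursor-like cluster 1 at 9.05 (7.31 to 11.1). At day 220 the contractile-like cluster had 158 (147 to 170) of SDC2, while SDC3 had 212 (197 to 228) in the OLIG1 cluster and 191 (179 to 205) in the contractile-like cluster. The precursor-like cluster 0 was low for both, at 17.9 (14.6 to 21.8) and 10.8 (8.22 to 13.9).

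Over the 11 clusters of day 160, with levels as log2(CPM + 10), the genes nearest in pattern were found by Pearson's r for the 8 members with 10 CPM or more in that library, which leaves out NCAN and CSPG4. Genes of 50 CPM or more in at least 1 cluster were searched, as a description over clusters that share a library and with no test. SDC3 was among the 3 nearest to SDC2 (r = 0.97) and SDC2 among the 3 nearest to SDC3. CSPG5 was nearest to IDI1, a gene of isoprenoid synthesis (0.99), ADGRV1 (0.99) and SERPINB6 (0.98). GPC3 was nearest to SEMA3E (0.97), RAMP1 (0.92) and PRDM8 (0.88), and BCAN to TM2D3 (0.95), TPST1 (0.92) and FAM171B (0.91). GPC6 was nearest to SLC39A1 (0.98), GPC4 to MCTS1 (0.92) and VCAN to MRPL12 (0.95). Day 220 had 5 clusters of 50 or more cells, too few points to set one gene above another.

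The day ratio was then taken within the 4 classes that were named in both libraries, a comparison added after the data were seen. Names were set against the rest of each library, so a class can hold unlike cells at each day. In the precursor-like class, summed precursor markers were 7702 and 3400 by cluster at day 160, against 1028 and 798 at day 220. Radial glia markers there were 2390 and 4383 against 6306 and 9563, sums that include TNC and PTPRZ1, both higher at day 220 over all kept cells. In their own classes neuron markers were 6267 and 5138 against 4359, and contractile markers 5687 against 3121. Cycling markers were 4397, 9809 and 5371 against 5214. The classes were neuronal precursor-like (2485 and 222 cells), neuron-like (1250 and 24), cycling-like (2012 and 30) and contractile-like (236 and 50), and no cluster of day 160 was named astrocyte-like. GPC6 was higher in all 4, by 19.5-fold (17.3 to 22.2), 32.0-fold (19.9 to 52.4), 17.1-fold (15.4 to 18.9) and 12.1-fold (10.8 to 13.6) in that order. NCAN was also higher in all 4, by 4.28-fold (3.66 to 4.997), 2.62-fold (1.83 to 3.66), 12.6-fold (9.13 to 17.3) and 20.04-fold (11.01 to 39.99), the last on 12 and 107 UMIs. Over all genes counted in each class, in the same order, 2614 of 9885, 2819 of 9731, 2602 of 10245 and 1926 of 9825 were higher past 2-fold. Lower past 2-fold were 419, 980, 297 and 541. The class ratios were not centred on intron length, and GPC6 has 1174092 intron bases.

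BCAN was 13.9-fold higher (12.02 to 16.2) in precursor-like cells, 12.6-fold (10.6 to 15.2) in contractile-like cells and 2.39-fold (1.98 to 2.86) in cycling-like cells, and its neuron-like ratio of 1.37 (0.813 to 2.19) had an interval that includes 1. In precursor-like cells the 2 clusters of day 220 differed, at 49.7 and 333. VCAN was lower in all 4, with ratios of 0.544 (0.459 to 0.640), 0.274 (0.0561 to 0.813) on 3 UMIs at day 220, 0.739 (0.556 to 0.964) and 0.532 (0.426 to 0.658). GPC3 was at 0.284 (0.110 to 0.622) in precursor-like cells, 0.0572 (0.00691 to 0.208) in cycling-like cells and 0.599 (0.365 to 0.949) in contractile-like cells, on 7, 2 and 24 UMIs at day 220.

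For 4 members the ratio lay above 1 in some classes and below 1 in another, where its interval included 1, and the differences between classes were not tested. The share of all genes with ratios on both sides of 1 was not counted. CSPG5 was 4.03-fold higher (3.43 to 4.74) in precursor-like and 2.34-fold higher (2.01 to 2.73) in contractile-like cells, with a ratio of 0.767 (0.574 to 1.01) in cycling-like cells. SDC3 was 2.52-fold higher (2.17 to 2.93) in precursor-like cells and at 0.831 (0.658 to 1.04) in cycling-like cells. SDC2 was 1.70-fold (1.42 to 2.03) and 3.36-fold higher (1.94 to 5.51) in precursor-like and neuron-like cells and at 0.805 (0.626 to 1.02) in cycling-like cells. GPC4 was 1.73-fold higher (1.64 to 1.82) in precursor-like, 1.61-fold (1.42 to 1.82) in cycling-like and 1.23-fold (1.15 to 1.31) in contractile-like cells, and at 0.756 (0.544 to 1.03) in neuron-like cells. The precursor-like ratios join 2 unlike clusters of day 220. SDC3 had 10.8 in cluster 0 and 109 in cluster 3, beside 17.0 in the day 160 class, so only cluster 3 was above it. CSPG5 had 16.7 and 115 beside 12.1, and SDC2 had 17.9 and 40.3 beside 14.9. GPC4 had 378 and 145 beside 175, so only cluster 0 was above it. Median UMIs per cell in these classes were 7314 and 37398, 5707.5 and 18690.5, 11844.5 and 53638, and 31634 and 81835, so depth per cell moved with the day in each class.

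**Figure D4:**
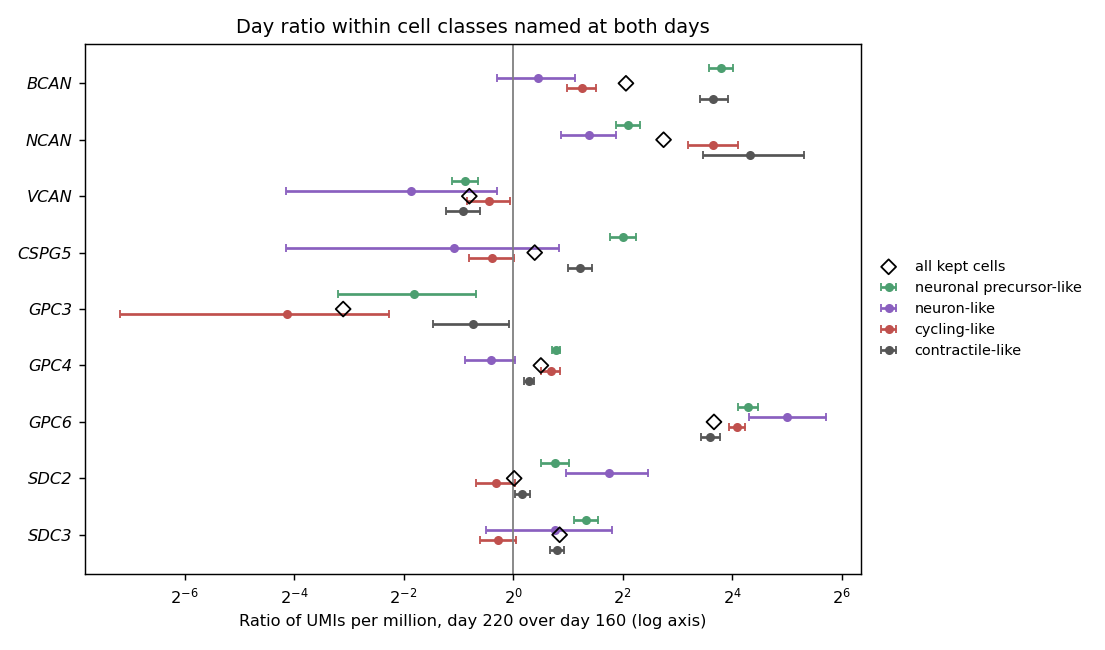
Ratio of levels, day 220 over day 160, on a log axis for 9 proteoglycan genes within the 4 classes named at both days, with 95% intervals for counting error, and over all kept cells as open diamonds. Classes with 0 UMIs at a day are left out. GPC6 and NCAN lie to the right of 1 in each class shown and VCAN and GPC3 to the left, while CSPG5, SDC2, SDC3 and GPC4 have classes on both sides.

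Shares of cells were compared after thinning each cell to 5000 UMIs, which left out 690 cells at day 160 and 30 at day 220. GPC6 was found in 10.9% of 8699 cells (10.3 to 11.6) at day 160 and in 59.8% of 488 cells (55.3 to 64.2) at day 220, or 23.9% and 81.1% before thinning. The share of cells with BCAN was 19.6% (18.7 to 20.4) and 45.1% (40.6 to 49.6) after thinning and 30.9% and 72.6% before, and for NCAN it was 4.25% (3.84 to 4.70) and 22.3% (18.7 to 26.3), from 7.49% and 67.0%. Thinned cells with GPC3 made up 4.67% (4.23 to 5.13) and 0.82% (0.22 to 2.09), the latter from 4 cells, beside 8.60% and 6.56% of unthinned cells. VCAN was found in 16.2% (15.4 to 17.0) and 8.20% (5.92 to 10.99) after thinning but in 30.5% and 43.4% before it, so for VCAN the order of the days in unthinned shares is the reverse of that in levels. SDC2 was found in 21.6% (20.7 to 22.5) and 22.1% (18.5 to 26.1). SDC3 was found in 21.7% (20.8 to 22.6) and 35.9% (31.6 to 40.3), CSPG5 in 21.9% (21.1 to 22.8) and 29.5% (25.5 to 33.8), and GPC4 in 44.9% (43.8 to 45.9) and 56.6% (52.0 to 61.0). CSPG4 was in 2 thinned cells at each day.

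Free RNA can place a UMI in a cell that does not express the gene, so the lowest shares over clusters are given beside these. At day 160 they were 2.47% for BCAN and 2.90% for CSPG5 in precursor-like cluster 1, where SDC3 was also lowest at 4.17%. They were 2.61% for SDC2 0.65% for GPC6 and 7.98% for VCAN in neuron-like cluster 4, with 0 of 614 cells for GPC3 in the same cluster. NCAN was in 0 of 219 contractile-like cells. For GPC4 the lowest share was 29.8%, in cluster 4. At day 220 the neuron-like cluster, with 21 thinned cells, had the lowest shares of BCAN and GPC6, 14.3% (3.05 to 36.3) each, and 0 cells with CSPG5, SDC3 or VCAN. The lowest shares of that day were 12.2% for NCAN in the contractile-like cluster, 6.76% for SDC2 and 0 of 148 cells for GPC3 in precursor-like cluster 0, and 37.5% for GPC4 in cluster 3. Median depths before thinning were 7657 UMIs in cluster 1 and 5430 in cluster 4, against 12131 in the radial glia-like cluster, where BCAN was in 39.9% and CSPG5 in 42.7% of cells.

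The spread of each member over cells was also described. At 5000 UMIs per cell, the variance of UMIs over their mean, which is 1 for counts that vary by sampling alone, was 2.44 for GPC3, 1.92 for BCAN, 1.49 for CSPG5 and 1.42 for GPC4 at day 160, and 1.08 for GPC6 and 1.13 for VCAN. At day 220 it was 3.88 for BCAN, 2.52 for GPC6 and 1.82 for GPC4, and 1.09 for VCAN. The 10% of cells with the most UMIs of a gene held 52.1% of thinned BCAN UMIs at day 220 and 38.3% of those of GPC6. Both measures also depend on the mean level, so they do not rank genes or days by unevenness. Mean UMIs per thinned cell at day 160 were 0.312 for BCAN, 0.189 for VCAN and 0.709 for GPC4. For BCAN at day 220 the mean was 1.31.

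A cell at 5000 UMIs had UMIs of 1.66 ± 1.27 members (SD over 8699 cells) at day 160 and of 2.81 ± 1.52 (488 cells) at day 220. No member was found in 18.1% and 4.10% of cells. By cluster the mean was highest in the RAMP1 cluster at day 160, at 2.57, and in the OLIG1 cluster at day 220, at 3.74. The lowest means were in the neuron-like clusters, 0.875 in cluster 4 of day 160 and 1.19 at day 220.

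Pairs of members were described within each library over thinned cells, 36 pairs a library and with no test, since cells of 1 library share their source and counts are sparse. BCAN and CSPG5 were together in 712 of 8699 cells at day 160, 1.91 times the product of their shares (Spearman's rho across cells 0.25), and in 93 of 488 at day 220, 1.43 times the product (rho 0.32). At day 220 BCAN and SDC3 had the highest rho, 0.36, with 117 cells holding both (1.48 times), followed by BCAN with CSPG5 and CSPG5 with SDC3 (0.29, 1.61 times). These 3 pairs were the highest at 2000 and 10000 UMIs too, but their order changed: BCAN with CSPG5 led at 2000 UMIs (0.25 against 0.20 for BCAN with SDC3), and at 10000 CSPG5 with SDC3 (0.48) was above BCAN with CSPG5 (0.46). With doublets kept at 5000 UMIs, BCAN with SDC3 was at 0.41, CSPG5 with SDC3 at 0.26 and BCAN with CSPG5 at 0.25. At day 160 CSPG5 and SDC2 were next after BCAN and CSPG5 (0.17, 1.60 times). BCAN and NCAN had a rho of 0.02 at day 160 and 0.22 at day 220, with 86 and 68 cells holding both.

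GPC4 had a negative rho with several members at day 220, -0.15 with CSPG5, -0.14 with BCAN and -0.14 with SDC3, and the pairs were found together 0.81, 0.90 and 0.88 times the product of their shares. At day 160 the rho values were 0.00, -0.05 and -0.01. With doublets kept, those of day 220 were -0.12, -0.14 and -0.08. GPC4 was highest in precursor-like cluster 0 at day 220, where the other 3 were low. NCAN at day 160 was found with SDC2 and SDC3 0.54 and 0.55 times the product, on 43 and 44 cells, with a rho of -0.05 for each. This moved with the settings, to 0.77 and 0.80 at 10000 UMIs and 0.69 and 0.80 with doublets kept. At 2000 UMIs it was 0.54 and 0.56.

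**Figure D5:**
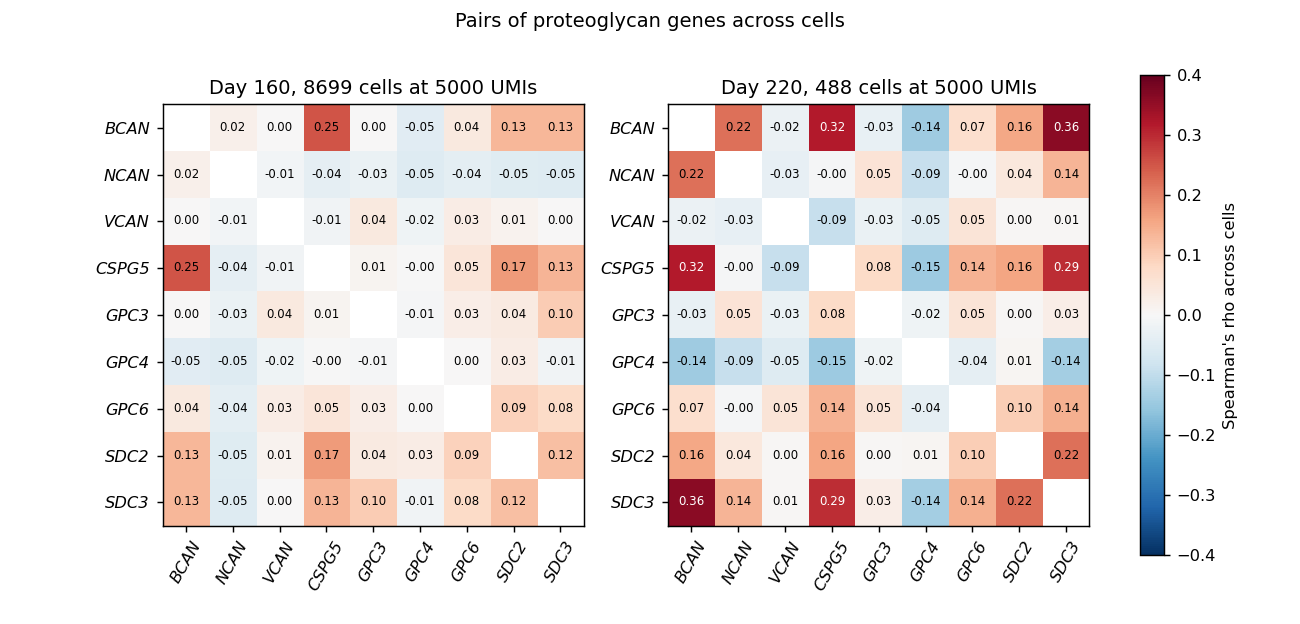
Spearman's rho across cells at 5000 UMIs for each pair of 9 proteoglycan genes, in 8699 cells of day 160 and 488 cells of day 220. The BCAN, CSPG5 and SDC3 pairs are the darkest red at day 220, from 0.29 to 0.36, and the GPC4 row is blue against them.

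Genes around the members were taken from 7 lists chosen by function. Of 6 genes for the linker that joins a chain to its protein, 5 were measured, 1 was at least 2-fold higher and 0 lower, beside 23% and 5.09% of all genes counted. XYLT1, a xylosyltransferase that starts the linker, had 5.90 (5.47 to 6.37) and 24.95 (23.1 to 26.97), with a log2 ratio of 1.91 that became -0.67 after centring on intron length. B3GAT3, which adds the last linker sugar, had 55.9 and 47.9.

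Of 16 genes that build or sulfate chondroitin chains, 11 were measured, 5 were higher and 0 lower, beside 23% and 5.09% of all genes counted. After centring 3 were higher and 0 lower, beside 10.5% and 7.49%. The median was 0.59 against 0.14 over all genes counted, or 0.62 and 0.00 after centring. CHST11, a chondroitin 4-O-sulfotransferase, had 15.9 (15.1 to 16.6) and 272 (266 to 279), 17.1-fold higher (16.3 to 18.1), which is 4.02 as a log2 ratio, or 2.35 after centring. UST, a uronyl 2-O-sulfotransferase, was 11.04-fold higher (9.65 to 12.7), with 3.05 or 0.47 after centring, and CHSY1, a chain polymerase, was 1.47-fold higher (1.34 to 1.60). CHST12 was at the low end, with 25.1 and 17.2.

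Of 21 genes of heparan sulfate synthesis and trimming, 14 were measured, with 7 higher, 0 lower and a median of 1.03, beside 23% and 5.09% of all genes counted. Centring left 5 higher and 2 lower and a median of 0.39, beside 10.5% and 7.49%. EXT1, a subunit of the heparan sulfate polymerase, had 11.3 (10.7 to 11.9) and 91.1 (87.4 to 94.8), a log2 ratio of 2.90 or 1.23 after centring, and its partner EXT2 had 27.9 and 53.0, at 0.90 or -0.38. HS3ST5, a 3-O-sulfotransferase, had 0.30 (0.21 to 0.42) and 27.7 (25.7 to 29.9), at 4.46 or 2.79. HS6ST1, a 6-O-sulfotransferase, had 42.2 and 23.1, 1.82-fold lower (1.67 to 1.99). The sulfatase gene SULF2 had 8.28 and 11.3.

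The link proteins that fasten lecticans to hyaluronan were scarce. HAPLN1 had 0 UMIs at day 160 and 1 at day 220. HAPLN2 had 17 UMIs at each day, or 0.15 and 0.67 CPM. HAPLN4 had 99 and 41 UMIs, or 0.86 and 1.61 CPM, and HAPLN3 had 262 and 121 UMIs, or 2.28 and 4.75 CPM. In CPM HAPLN2, HAPLN3 and HAPLN4 were thus higher at day 220, all under 10. HAPLN1 lies 55501 bases from VCAN, HAPLN2 15664 bases from BCAN and HAPLN4 3407 bases from NCAN. TNC, the tenascin-C gene, had 96.9 (95.1 to 98.7) and 508 (500 to 517), 5.25-fold higher (5.12 to 5.38), and was the only 1 of 9 genes on that list with 10 CPM. TNR, the tenascin-R gene, had 0.25 and 0.67.

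Of 23 other proteoglycan genes 8 were measured, and 1 was higher and 1 lower around a median of 0.24, beside 23% and 5.09% of all genes counted, with 0 past 2-fold in either direction and a median of -0.16 after centring. PTPRZ1, a receptor phosphatase with chondroitin sulfate chains, had 253 (250 to 256) and 963 (951 to 975), at 1.93 or 0.64. GPC2, a glypican of developing neurons, had 53.9 (52.6 to 55.3) and 23.6 (21.7 to 25.5), 2.29-fold lower (2.10 to 2.49). GPC1 had 363 and 244. The same background holds for the receptor and cleavage lists. Of 6 genes of receptors for the chains 3 were measured and 1, PTPRS, was higher, at 8.86 (8.32 to 9.42) and 226 (221 to 232), with a log2 ratio of 4.53 or 3.24. After centring 1 was higher and 1 lower, the latter PTPRD, which went from 0.50 to -2.08. Of 15 genes of cleavage and release 6 were measured and 2 were higher and 0 lower, ADAMTS9 at 3.17 or 1.89 and MMP2 at 1.71 or 0.65. NOTUM, also on the cleavage and release list, had 36 and 2 UMIs, or 0.31 and 0.078 CPM.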

How the data were processed

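The 2 libraries were made with a 10x Genomics Chromium 3′ kit, per the labels. What the authors deposited are unnormalized UMI counts of each gene in each barcode, from Cell Ranger 7.0.1 as stated per the file headers. The submitters' processing notes list hg38, Seurat 4 and Cell Ranger 7. Intron counting, strand, annotation release and cell calling were not given in the sources used here. Barcodes with 1000 or more genes and at most 15% mitochondrially encoded UMIs passed (9972 of 13018 at day 160, 524 of 676 at day 220), and Scrublet in scanpy 1.11.5 left out 583 and 6 as doublets. Counts were summed over kept cells (115158004 and 25487554 UMIs) and scaled to CPM, and edgeR 4.0.16 gave TMM factors for an alternative. Ratios carry exact conditional binomial intervals, levels exact Poisson and shares exact Clopper-Pearson intervals, at 95%. The ratio rule was log2 with 1 added to each level, for genes of 10 or more in at least 1 library. Centring subtracted the median of 20 intron-length bins, from GENCODE 29 on GRCh38. Clustering used 2000 variable genes, 30 components, 15 neighbours and Leiden resolution 0.5, with 0.3 and 1.0 as alternatives. Leading genes were ranked by fold of the level + 10 in a cluster over the rest of its library. The ratio code was checked on simulated data. All 10 members are named, and of each pathway list the 3 highest and 3 lowest measured genes could be named, as could link proteins, tenascins, NOTUM and a fixed set of chain enzymes (EXT1, EXT2, XYLT1, XYLT2, CHSY1, CSGALNACT1, CSGALNACT2, SULF1, SULF2). Members, lists and markers were chosen with earlier results of these data known. Protein sequences were not used here.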

Additional observations from a re-analysis of the deposited data

Results flagged for a closer look

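For 4 members the day ratio lay above 1 in one named class and below 1 in another, each resting on 20 or more UMIs a day. How many of all genes meet the same rule was not counted, so the count of 4 does not set the members apart. CSPG5 had 4.03 in precursor-like and 0.767 in cycling-like cells, SDC3 had 2.52 and 0.831, and SDC2 had 1.70 and 0.805. GPC4 had 1.73 in precursor-like and 0.756 in neuron-like cells. The differences between classes were not tested, since each class has 1 library a day, and the intervals of the 4 lower ratios include 1. The precursor-like value of SDC3 was above the day 160 class in 1 of its 2 day 220 clusters, and so was that of GPC4. The precursor-like clusters of day 220 also had lower summed precursor markers than those of day 160, as given above.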

How the results depend on the processing

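The count of 3 members at least 2-fold higher held in each of the 15 alternatives that recount it. The count of 1 member lower was 2 with TMM factors, with median-of-ratios size factors and with thinning to 5000 UMIs, 3 after centring on intron length and 0 among genes of 50 or more CPM. TMM left 1582 genes of the series higher and 1652 lower, 48.9% higher against 81.9% (2334 and 517) as measured, median-of-ratios factors 1598 and 1610, 49.8% higher, and centring 1065 and 759, 58.4% higher. Other counts over all genes were 1622 and 255 with a pseudocount of 10, 4073 and 719 with no filter, and 1017 and 216 at 50 or more CPM. Over the 7 pathway lists 18 of 48 measured genes were higher and 1 lower, beside 23% and 5.09% of all genes counted. These became 11 and 3 after centring, beside 10.5% and 7.49%, and 14 and 0 with a pseudocount of 10. The cause of these shifts was not tested.

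The log2 ratio of SDC2 (0.02) turned to -0.012 with 2000 genes per cell, -0.087 without mitochondrial and ribosomal genes, -0.43 with TMM, -0.42 with median-of-ratios factors, -1.04 after centring, -0.045 outside cycling clusters, -0.60 in cells of 20000 or more UMIs (913 and 441 cells, added after seeing the data) and -0.31 in cycling-like cells. CSPG5 turned to -0.063 and -0.052 with the same factors, -0.93 in neuron-like and -0.37 in cycling-like cells. GPC4 turned to -0.26 after centring and -0.40 in neuron-like cells, and SDC3 to -0.26 in cycling-like cells. The medians of other proteoglycans and of chain receptors turned to -0.16 and -0.85 after centring. BCAN, NCAN, GPC6, GPC3 and VCAN kept their direction in each alternative run. With a pseudocount of 10 NCAN was at 1.81 and GPC3 at -1.11. The highest over the lowest cluster level moved most at resolution 0.3, where GPC3 went from 262 to 79.2 and GPC6 from 19.1 to 3.95 at day 160 (GPC6 7.35 with members kept for clustering), and at resolution 1.0, where SDC3 went from 19.7 to 50.7 and SDC2 from 8.82 to 27.8 at day 220. No ratio was computed in astrocyte-like cells, since no day 160 cluster had that name. No paired analysis was possible because each day has 1 library. The 24 to 50 cells of the smallest day 220 clusters limit the class ratios.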
